A study of Homo sapiens with 8 samples.

Results

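Belinostat, an inhibitor of histone deacetylases, was given to U87 cells that had already been kept on AsiDNA, and the transcriptome of these cells was compared with that of AsiDNA cells without belinostat. U87 is an established human glioblastoma line. The comparison used 4 of the 8 sequenced libraries: AsiDNA replicates 1 and 2, labelled as long-term AsiDNA treatment, and replicates 1 and 2 of AsiDNA with 1 µM belinostat for 24 h, called the combination here. All 4 libraries therefore carried AsiDNA, and the DMSO and belinostat-only libraries of the series entered no value of this comparison unless a sentence says so. AsiDNA's dose and duration, and whether the cells without belinostat received its solvent, are not given in the labels. Nor do the labels tie the 2 replicates of a group to separate cultures, so p-values reflect only how far these samples scatter, and that scatter may be technical. Of the 58884 genes in the count table, 32695 had no count in the 4 libraries and 13093 had enough counts to be tested.

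Histone deacetylases remove acetyl groups from lysines of histone tails and of many other proteins. Inhibitors such as belinostat leave chromatin more acetylated, and both raised and lowered transcripts are known from cells given these drugs. AsiDNA is a synthetic DNA duplex whose end imitates a double-strand break, which activates damage-signalling enzymes such as DNA-PK and PARP away from the chromosomes. In glioblastoma cells the genes usually followed after deacetylase inhibition are those of the cell cycle, DNA repair, cell death, chromatin, stress handling, matrix and cell identity, and the results below follow that order.

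The libraries held 6426752 to 8335614 counts, and 3 counts corresponded to between 0.360 and 0.467 CPM, the counts in a library scaled to a common depth. CDKN2A, which U87 is known to lack, had 0 counts in all 4 libraries. All 10 markers of mesenchymal glioma lines were present, with a sum of 33648 and 34722 CPM in AsiDNA and 53653 and 53407 CPM in the combination. FN1 alone went from 12673 and 13392 to 32379 and 32167 CPM, and 5 of the 10 were called higher and 4 lower, with 3 higher in the fit of all 8 libraries, with scaling by library size only, without the 10 most abundant genes or without AsiDNA replicate 1. The 7 astrocyte markers summed to between 336 and 434 CPM, most of it GJA1 at 286 to 377 CPM and SLC1A3 at 48.5 to 53.5 CPM, and the defining genes GFAP and AQP4 were at 0. Markers of other cell types were low. The 10 immune markers summed to between 6.25 and 16.8 CPM, with AIF1, CD3E and TYROBP among those at 0. Most of the AsiDNA sum was CSF1R, at 12.7 and 13.3 CPM in AsiDNA and 2.30 and 2.39 CPM in the combination. The 6 endothelial markers summed to between 5.56 and 16.9 CPM, with CDH5 and CLDN5 at 0. Most of that was PECAM1, at 3.67 and 5.85 CPM in AsiDNA and 13.3 and 15.7 CPM in the combination. The 8 epithelial markers summed to between 1.66 and 3.40 CPM, with KRT5 and KRT19 at 0. The nuclear RNAs MALAT1 and NEAT1 together took 0.753% and 0.688% of counts in AsiDNA and 3.12% and 2.06% in the combination, and whether this share moved other results was not tested beyond the fit without the 10 most abundant genes, which called 4182 genes higher and 4102 lower. Protein-coding genes took 97.3% and 97.4% of counts in AsiDNA and 94.8% and 96.2% in the combination.

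Most of the expressed transcriptome of the AsiDNA cells differed with belinostat. Of the 13093 tested genes, 8267 passed an adjusted p under 0.05 (63.1% called) in edgeR's quasi-likelihood test, of which 4172 were higher in the combination (31.9%) and 4095 lower (31.3%). The 2 libraries of one group lay beyond both of the other for 10506 genes (80.2%). At least 2-fold changes were called for 2779 genes (21.2%), of which 1441 were higher (11%) and 1338 lower (10.2%). The extremes leaned upward: 400 genes were at least 4-fold higher and 220 at least 4-fold lower, and at 16-fold the counts were 58 and 2. The median gene was at 0.01 on the log2 scale, and the median size of a difference was 1.40-fold. In what follows, "rose" and "fell" are used only for genes called in this test, log2 fold changes are given with their standard error, and levels are listed as replicate 1 and 2 of AsiDNA followed by replicate 1 and 2 of the combination. The shares of all tested genes, 31.9% higher and 31.3% lower, apply to every list count below. Several lists that split in both directions lie near these shares, and their counts then say nothing particular about the members.

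**Figure D1:**
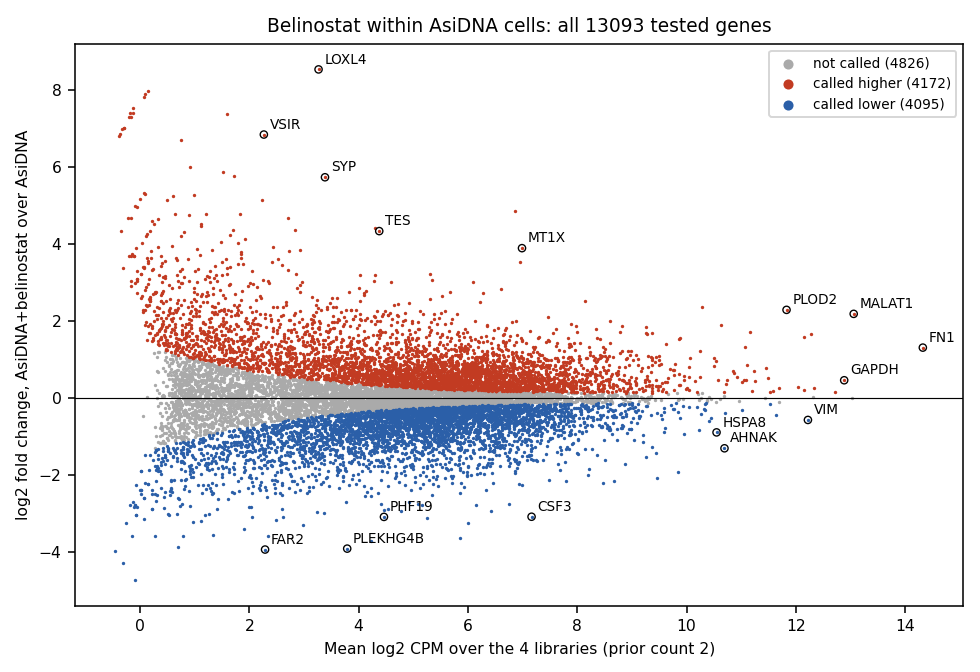
Log2 fold change of each of the 13093 tested genes (combination against AsiDNA, vertical axis) against its mean log2 CPM over the 4 libraries (horizontal axis), with called genes coloured by direction and some genes named in the text circled. There are 4172 called genes above 0 and 4095 below, and the points with the largest changes lie above.

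The replicates lay close together next to this difference. Among 8061 genes with a mean log2 CPM above 4, the AsiDNA replicates were over 1.5-fold apart for 0.186%, the combination replicates for 0.484% and the group means for 36%. Standard errors on the log2 scale had a median of 0.13, falling to 0.08 where the mean log2 CPM reached 6 and rising to 0.44 under 2. CPM are shares of a library: in bulk RNA, fewer cells of a kind and less RNA per cell cannot be told apart, and with scaling by library size only the median of all genes was -0.13 and 39.9% of called genes were higher, against 50.5% with the scaling used here.

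**Figure D2:**
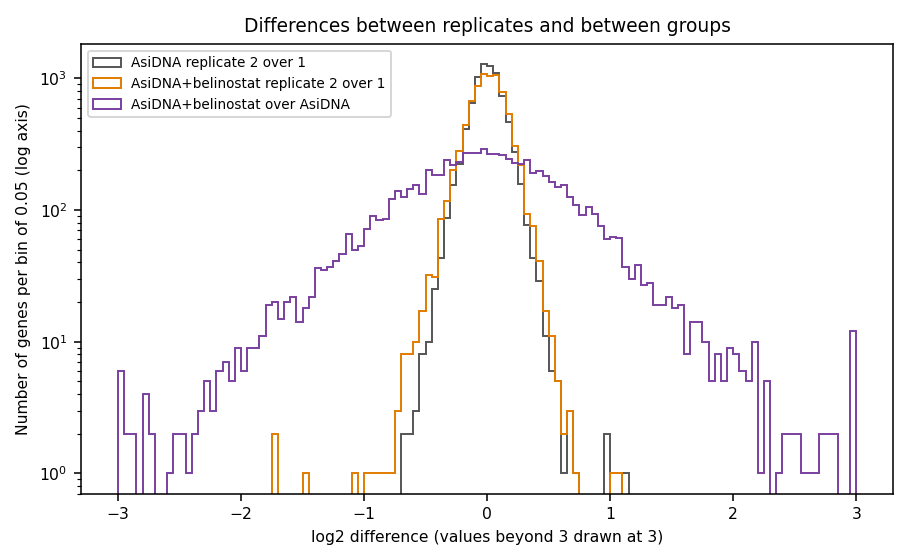
Number of genes (vertical log axis) by log2 difference (horizontal axis, values beyond 3 in size drawn at 3), over 8061 genes with a mean log2 CPM above 4. The lines give the difference between the 2 AsiDNA replicates, between the 2 combination replicates and between the 2 group means, and the replicate differences crowd around 0 while the difference between groups spreads far wider.

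The largest changes were rises from levels near the detection limit. LOXL4, a lysyl oxidase of the extracellular matrix, was at 0.118 and 0.713 CPM in the AsiDNA libraries and 151 and 148 CPM in the combination, and its log2 fold change was 8.52 ± 0.20 (adjusted p = 9.25e-34). Its size rests on few AsiDNA counts, with 7.67 without AsiDNA replicate 1 and 10.1 without AsiDNA replicate 2. The checkpoint protein gene VSIR was at 0.355 and 0.285 CPM in the AsiDNA libraries and 42.8 and 35.3 CPM in the combination and rose by 6.83 ± 0.29. The largest fall among genes above a mean log2 CPM of 2 was that of FAR2, a fatty acyl-CoA reductase, which was at 19 and 16 CPM in the AsiDNA libraries and 0.823 and 1.38 CPM in the combination and fell by 3.93 ± 0.29 on the log2 scale. For these 3 genes the groups did not overlap, which the rule that picked them required, and the AsiDNA libraries of LOXL4 and VSIR held few counts. The RefSeq promoter windows (GRCh38.p14, 250 bases before to 50 bases after the annotated start, 5′ to 3′ on the gene's strand) of the 2 largest rises above a mean log2 CPM of 2 and of this fall are shown so that extremes of both directions can be compared: capitals mark GGGCGG, the GC box, or CCAAT on either strand. LOXL4 is read from chr10:98268145-98268444 on the minus strand, VSIR from chr10:71773471-71773770 on the minus strand and FAR2 from chr12:29149028-29149327 on the plus strand.
LOXL4: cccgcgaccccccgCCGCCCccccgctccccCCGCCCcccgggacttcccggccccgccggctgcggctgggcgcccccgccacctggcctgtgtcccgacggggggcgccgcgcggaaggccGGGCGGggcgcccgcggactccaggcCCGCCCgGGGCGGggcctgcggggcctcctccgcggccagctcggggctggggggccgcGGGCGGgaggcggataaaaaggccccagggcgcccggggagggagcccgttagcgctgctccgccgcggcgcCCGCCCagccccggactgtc
VSIR: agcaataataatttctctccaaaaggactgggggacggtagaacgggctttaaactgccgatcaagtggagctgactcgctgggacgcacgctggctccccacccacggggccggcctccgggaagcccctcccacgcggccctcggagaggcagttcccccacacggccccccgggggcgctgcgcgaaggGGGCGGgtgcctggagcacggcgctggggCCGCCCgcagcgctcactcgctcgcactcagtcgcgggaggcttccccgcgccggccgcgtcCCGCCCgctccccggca
FAR2: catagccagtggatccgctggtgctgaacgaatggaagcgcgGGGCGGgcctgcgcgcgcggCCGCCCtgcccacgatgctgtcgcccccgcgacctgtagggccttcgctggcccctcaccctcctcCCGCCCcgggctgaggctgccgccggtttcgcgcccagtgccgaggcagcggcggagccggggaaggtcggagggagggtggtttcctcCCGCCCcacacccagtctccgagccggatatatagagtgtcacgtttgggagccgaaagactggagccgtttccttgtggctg
The GC box occurred 7 times in the LOXL4 window, 3 times in that of VSIR and 4 times in that of FAR2, and CCAAT in none of them. Among the 9920 tested genes with a RefSeq window, 70.3% held GGGCGG. The share was 67.8% among genes at least 2-fold higher and 67.6% among genes at least 2-fold lower.

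Other genes among the largest rises had a range of roles. SYP, synaptophysin of the synaptic vesicle membrane (ENSG00000102003, chromosome X, 49187804 to 49200259, GRCh38), was at 1.18 and 1.43 CPM in the AsiDNA libraries and 65.3 and 73.1 CPM in the combination. It rose by 5.73 ± 0.19 on the log2 scale (adjusted p = 5.39e-28). FBXO32, a muscle ubiquitin ligase subunit also known as atrogin-1 (ENSG00000156804, chromosome 8, 123497889 to 123541206), was at 22.6 and 20.3 CPM in the AsiDNA libraries and 627 and 618 CPM in the combination and rose by 4.85 ± 0.08 (adjusted p = 1.64e-39). It was well detected in both groups. The adhesion molecule gene CADM4 went from 1.3 and 0.999 to 32.6 and 27.5 CPM (log2 fold change 4.66 ± 0.25). CCL20, a chemokine that attracts CCR6-bearing lymphocytes, went from 1.89 and 0.999 to 28.8 and 32.3 CPM (4.35 ± 0.24). ATP8A1, a flippase that moves phospholipids across membranes, went from 2.01 and 1.71 to 27.2 and 27 CPM (3.84 ± 0.22). These 3 genes were within a few CPM of 0 in AsiDNA and far above it in both combination libraries.

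The solute carrier gene SLC12A8 rose from 3.55 and 4.85 to 95.8 and 80.9 CPM (4.4 ± 0.15), the coiled-coil gene CCDC69 from 0.591 and 0.713 to 22.9 and 24.1 CPM (5.15 ± 0.29), and REEP6, which shapes endoplasmic reticulum membranes, from 1.18 and 1.28 to 20.7 and 17.4 CPM (3.93 ± 0.27). DHRS2, a short-chain dehydrogenase, rose from 1.18 and 2.14 to 23.4 and 23 CPM (3.82 ± 0.25). In each of these the 2 combination libraries were close to each other. TES, a focal adhesion protein, was at 4.97 and 4.0 CPM in the AsiDNA libraries and 86.9 and 95.3 CPM in the combination (4.33 ± 0.14). An antisense gene without a name overlaps TES and went from 2 counts over both AsiDNA libraries to 131 counts over both combination libraries, and since the strand setting of the counting is not given, reads of the 2 genes cannot be told apart.

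The largest falls also took genes of different roles. PRRX1, a homeobox factor of mesenchymal cells (ENSG00000116132, chromosome 1, 170662728 to 170739419), was at 113 and 109 CPM in the AsiDNA libraries and 11.7 and 13.8 CPM in the combination and fell by 3.1 ± 0.11 on the log2 scale (adjusted p = 8.45e-27). CSF3, the granulocyte colony-stimulating factor (ENSG00000108342, chromosome 17, 40015361 to 40017813), was at 420.0 and 414 CPM in the AsiDNA libraries and 45.9 and 52.3 CPM in the combination and fell by 3.08 ± 0.08 (adjusted p = 4.20e-33). Both genes kept their levels between replicates. SAPCD2, which takes part in spindle orientation, went from 190.0 and 203 to 21.2 and 20.2 CPM (-3.25 ± 0.09). PHF19, a Polycomb-like chromatin reader, went from 63.9 and 61.9 to 7.57 and 7.29 CPM (-3.08 ± 0.14). APOBEC3B, a cytidine deaminase acting on single-stranded DNA, went from 22.6 and 24.1 to 2.3 and 2.39 CPM (-3.3 ± 0.22). None of these 3 had overlapping groups, which the rule that picked the largest falls required. The stress transcription factor gene ATF5 fell from 15.1 and 16.1 to 2.14 and 1.38 CPM (-3.17 ± 0.27) and the electron transport gene CYB561 from 16 and 18.4 to 1.48 and 2.39 CPM (-3.09 ± 0.26).

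**Figure D3:**
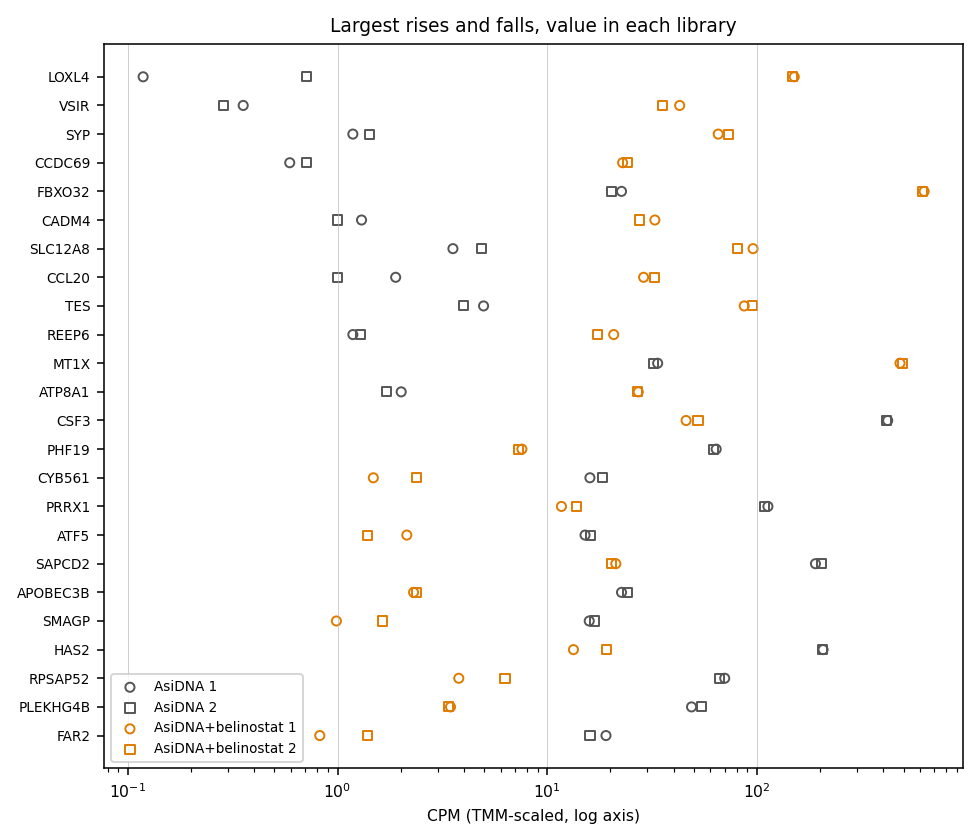
CPM on a log axis in each of the 4 libraries (circles for replicate 1, squares for replicate 2, AsiDNA grey and combination orange) for the genes with the largest rises and falls. Groups that do not overlap were required for a gene to be shown, and the replicates of a group lie farthest apart for LOXL4 in the AsiDNA cells.

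Genes close to silence in AsiDNA cells became readable with belinostat far more often than the reverse. With at most 3 counts summed over the AsiDNA libraries, 43 genes reached at least 30 counts over the combination libraries, 33 of them protein-coding and 12 with 0 counts in AsiDNA. The opposite held for 3 genes, none of which was at 0. DNAI1, a dynein chain of motile cilia, had 3 counts over the AsiDNA libraries and 113 over the combination libraries, a depth-adjusted ratio of 41.5 (95% exact interval 13.8 to 204). GRIA2, a subunit of AMPA glutamate receptors, had 3 and 80 counts, a ratio of 29.4 (9.70 to 146). ENPP5 had 2 and 77 counts, a ratio of 42.4 (11.4 to 357). LMCD1, a LIM domain transcriptional cofactor, had 2 and 72 counts, a ratio of 39.7 (10.6 to 334). FXYD7, a regulator of the sodium pump, had 0 and 56 counts, and BCAM, a laminin-binding adhesion molecule, 0 and 53 counts. Set against a floor of 3 counts over the AsiDNA group, these were at least 20.6-fold and at least 19.5-fold higher. In the other direction LTBR, the lymphotoxin beta receptor, went from 42 counts to 3, which is 12.7-fold lower (4.06 to 64.1). These intervals cover counting error only.

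A handful of transcripts held a growing share of the RNA. FN1, fibronectin, took 1.33% and 1.40% of all counts in AsiDNA and 3.06% and 3.07% in the combination, and rose by 1.31 ± 0.05 on the log2 scale. PLOD2, which hydroxylates collagen lysines, went from 1685 and 1610.1 to 7866 and 8225 CPM (2.29 ± 0.06). TFPI2, a protease inhibitor of the matrix, went from 2671 and 2562 to 7819 and 7884 CPM (1.59 ± 0.05). The 10 genes with the most counts took 6.42% and 6.54% of a library in AsiDNA and 11% and 10% in the combination. The glycolytic enzyme gene GAPDH, often used as a reference, rose from 6328 and 6561 to 8916 and 8834 CPM (0.46 ± 0.05), and the reference gene ACTB fell from 3631 and 3777 to 2813 and 2682 CPM (-0.43 ± 0.05). The call of ACTB was lost in the fit of all 8 libraries (adjusted p = 0.0758). Among the genes with the most counts that fell were AHNAK, a giant scaffold protein, which went from 2567 and 2638 to 1059 and 1049.9 CPM (-1.3 ± 0.06), and VIM, the intermediate filament vimentin, which went from 5769 and 5858 to 3795 and 4050.0 CPM (-0.57 ± 0.05). The small call of FLNA (-0.15 ± 0.06) was lost in the fit of all 8 libraries (adjusted p = 0.367) and without AsiDNA replicate 2.

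Genes of cell division fell as a block. The 40 tested genes of G2 and mitosis were all called lower (40 of 40, against 31.3% of all tested genes), with a median log2 fold change of -1.43 against 0.01 for all genes. KIF20A, a kinesin of the central spindle, went from 260.0 and 267 to 53.6 and 59 CPM (-2.22 ± 0.08). MKI67, the proliferation marker Ki-67, went from 540.1 and 582 to 173 and 144 CPM (-1.83 ± 0.07). The smallest fall of the list was that of INCENP, a subunit of the chromosomal passenger complex, at -0.71 ± 0.08, followed by the spindle checkpoint kinase gene TTK at -0.74 ± 0.10. Of 20 tested genes of G1 cyclins, their kinases and the RB-E2F switch, 15 fell and 4 rose (median -0.70). CCND1, cyclin D1, which drives cells out of G1, was at 1157 and 1120.1 CPM in the AsiDNA libraries and 429 and 426 CPM in the combination and fell by 1.41 ± 0.06. TFDP1, the partner that E2F factors need to bind DNA, went from 219 and 219 to 64.3 and 68 CPM (-1.72 ± 0.08), while its relative TFDP2 rose from 52.8 and 51.2 to 87.2 and 92.7 CPM (0.79 ± 0.09). RBL2, the pocket protein p130 of resting cells, also rose, from 124 and 124 to 166 and 160.1 CPM (0.39 ± 0.07).

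The inhibitors that hold the cycle back did not rise together. CDKN1A, which encodes p21, was at 119 and 125 CPM in the AsiDNA libraries and 86.1 and 81.9 CPM in the combination and fell by 0.54 ± 0.08 (adjusted p = 9.85e-08). CDKN1B, which encodes p27, went from 41.4 and 42.2 to 52.7 and 56.1 CPM (0.38 ± 0.10), a call that DESeq2 did not make (adjusted p = 0.0588). The list had 8 genes, of which 4 had too few counts to be tested, CDKN2A among them. Of the 38 tested genes of DNA replication, 33 fell and 2 rose (median -0.88). RRM2, the small subunit of ribonucleotide reductase, went from 869 and 835 to 243 and 274 CPM (-1.72 ± 0.06). TYMS, thymidylate synthase, went from 74.5 and 62.6 to 20.4 and 14.8 CPM (-1.99 ± 0.12), and POLE, the leading-strand polymerase, from 170.3 and 176 to 66.8 and 65.7 CPM (-1.39 ± 0.08). CDC6, which loads the helicase, was not called, at 105 and 103 CPM in the AsiDNA libraries and 87 and 104 CPM in the combination. The groups of the 3 former genes did not overlap, as for 80.2% of all tested genes.

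The replication-dependent histone genes, which are transcribed in S phase and supply the histones that package new DNA, fell in all 48 tested cases, 41 of them by at least 2-fold (median -1.64). The list sum went from 4225 and 4447 CPM to 1635 and 1785 CPM. H2BC11 fell from 87.4 and 88.8 to 11 and 14.7 CPM (-2.75 ± 0.12) and the linker histone gene H1-5 from 385 and 391 to 123 and 124 CPM (-1.65 ± 0.06). H1-2, another linker histone, fell less, from 366 and 394 to 251 and 259 CPM (-0.57 ± 0.06). CENPA, the histone variant of centromeres, fell from 48.6 and 47.8 to 16.6 and 14.6 CPM (-1.64 ± 0.13) and the variant H2AZ1 from 421 and 436 to 144 and 167 CPM (-1.46 ± 0.07). Histone genes share long stretches of near-identical sequence, so the split of reads between single members is uncertain.

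The promoters of these lists often held CCAAT and differed in other short sequences. For each list 1 or 2 windows are shown, those of the members with the smallest adjusted p whose window holds the motifs. For MKI67 (chr10:128126374-128126673 on the minus strand) and PLK1 (chr16:23678639-23678938 on the plus strand), a mitotic kinase that went from 164 and 172 to 45.9 and 42.3 CPM (-1.93 ± 0.08), capitals mark CCAAT or TTTGAA, the core of the cell cycle homology region, on either strand. For POLE (chr12:132687293-132687592 on the minus strand) and TYMS (chr18:657403-657702 on the plus strand) they mark TTCCCGC or TTGGCGC, both E2F-type sites, and for H3C7 (chr6:26250586-26250885 on the minus strand), a histone H3 gene, CCAAT or the TATA box TATAAA.
MKI67: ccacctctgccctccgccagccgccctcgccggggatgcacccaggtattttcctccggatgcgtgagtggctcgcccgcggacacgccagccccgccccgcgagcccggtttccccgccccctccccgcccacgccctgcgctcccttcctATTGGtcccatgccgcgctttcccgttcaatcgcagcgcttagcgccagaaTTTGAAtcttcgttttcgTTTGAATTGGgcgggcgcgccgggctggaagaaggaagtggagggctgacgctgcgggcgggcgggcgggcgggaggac
PLK1: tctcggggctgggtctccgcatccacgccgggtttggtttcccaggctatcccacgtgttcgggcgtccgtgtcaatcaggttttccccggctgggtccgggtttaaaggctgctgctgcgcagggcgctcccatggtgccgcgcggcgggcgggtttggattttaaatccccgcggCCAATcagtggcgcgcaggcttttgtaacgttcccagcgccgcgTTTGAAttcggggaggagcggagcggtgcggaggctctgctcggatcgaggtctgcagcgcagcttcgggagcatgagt
POLE: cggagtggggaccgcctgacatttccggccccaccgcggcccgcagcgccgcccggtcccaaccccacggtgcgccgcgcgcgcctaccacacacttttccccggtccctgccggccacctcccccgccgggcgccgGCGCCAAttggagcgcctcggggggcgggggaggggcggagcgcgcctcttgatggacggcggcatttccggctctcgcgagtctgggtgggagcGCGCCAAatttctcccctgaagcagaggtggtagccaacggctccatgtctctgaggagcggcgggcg
TYMS: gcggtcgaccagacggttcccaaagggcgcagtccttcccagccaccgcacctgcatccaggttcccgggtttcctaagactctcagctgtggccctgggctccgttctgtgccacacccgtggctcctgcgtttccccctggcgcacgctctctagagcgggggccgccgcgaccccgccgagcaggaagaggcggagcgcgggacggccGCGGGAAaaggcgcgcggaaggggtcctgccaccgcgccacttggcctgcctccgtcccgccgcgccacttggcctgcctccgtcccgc
H3C7: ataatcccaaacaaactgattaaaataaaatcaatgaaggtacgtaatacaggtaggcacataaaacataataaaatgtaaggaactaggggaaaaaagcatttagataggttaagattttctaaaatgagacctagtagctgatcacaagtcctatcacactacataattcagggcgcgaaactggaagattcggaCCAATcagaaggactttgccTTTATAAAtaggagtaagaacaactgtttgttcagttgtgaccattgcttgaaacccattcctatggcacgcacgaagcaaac
CCAAT and TTTGAA occurred together in 58.8% of 34 windows of G2 and mitosis genes, against 4.35% of all 9920 windows. An E2F-type site was in 60.6% of 33 windows of replication genes, against 14.8% of all, and in 17.6% of the mitotic windows. TTTGAA was in 3.03% of the replication windows, 32.6% of the histone windows and 70.6% of the mitotic ones. Of 43 histone windows, 88.4% held CCAAT and 69.8% TATAAA, against 37.6% and 5.70% of all. CCAAT was also in 76.5% of the mitotic windows and 60.6% of the replication windows. Across the whole comparison, TTTGAA was in 18.4% of the windows of genes at least 2-fold lower and in 9.41% of those at least 2-fold higher, with 10% of all windows. For CCAAT these shares were 41.1% and 41.4%. These are matches of letters in a window, and no binding was measured.

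**Figure D4:**
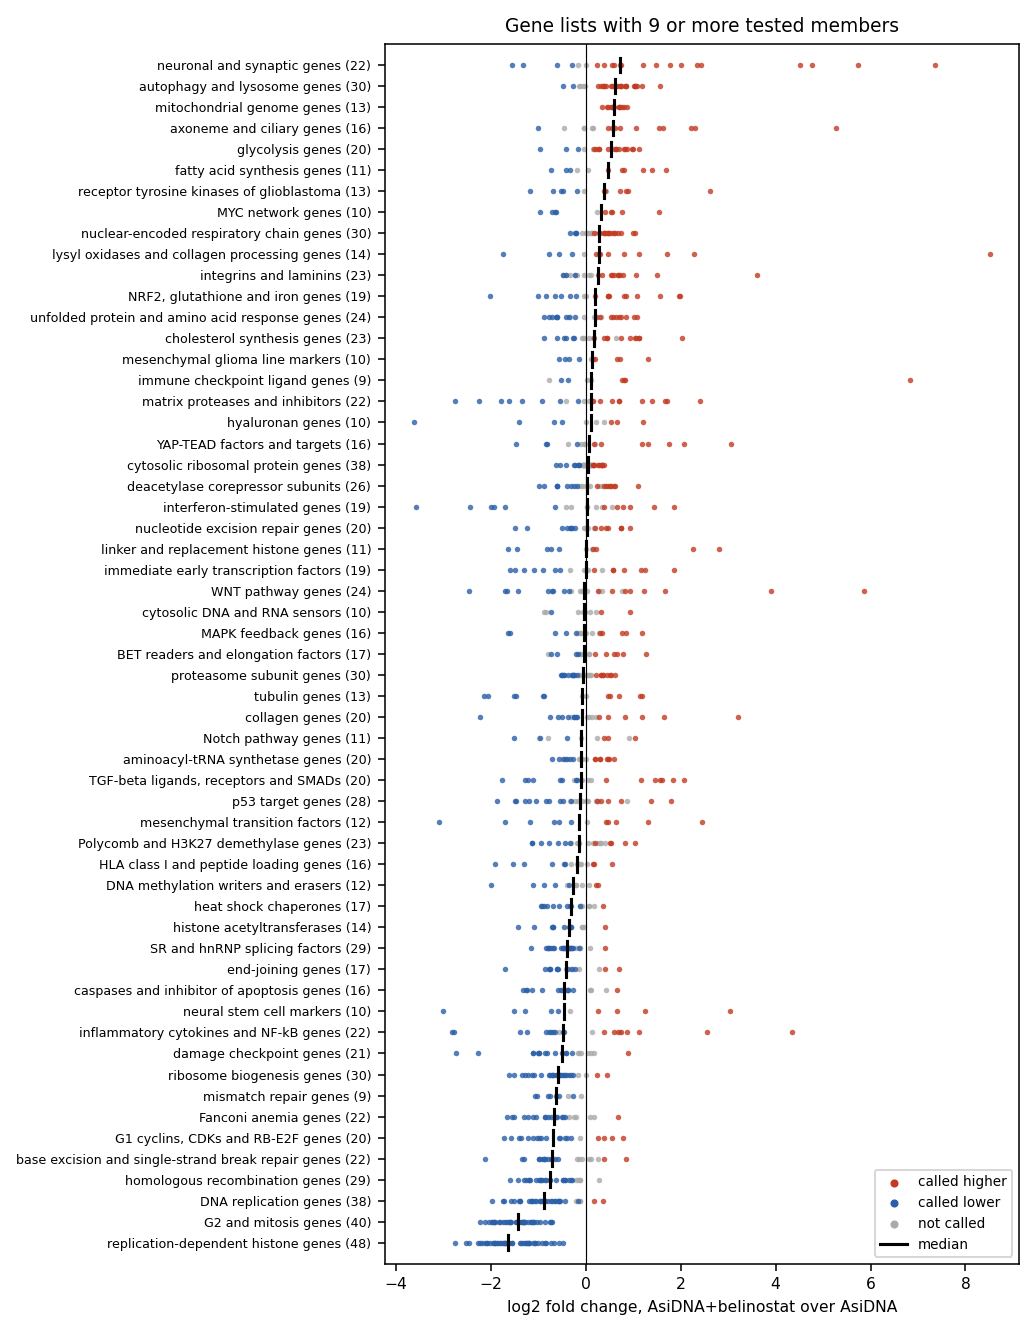
Gene lists with at least 9 tested members (number in brackets), each with the log2 fold changes of its members as points (combination against AsiDNA), coloured by whether the gene was called higher, called lower or not called, and the median as a black mark. All points of the histone and mitosis lists and most of the replication list lie below 0, the autophagy and lysosome list lies mostly above 0, and the medians of the ribosomal protein and proteasome lists are close to 0.

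Genes that repair DNA fell in most pathways, with nucleotide excision repair as the list without a common direction. Of 29 tested genes of homologous recombination, the pathway that copies a sister chromatid, 24 fell and 0 rose (median -0.76, with 31.3% of all genes called lower). By DESeq2 18 were lower, and 20 in the fit of all 8 libraries. BRCA1 was at 107 and 102 CPM in the AsiDNA libraries and 45.7 and 45.4 CPM in the combination and fell by 1.2 ± 0.09 (adjusted p = 6.61e-16). NBN, which senses breaks, went from 124 and 113 to 48.4 and 54.2 CPM (-1.21 ± 0.09), and RBBP8, which starts end resection, from 129 and 132 to 62.5 and 63.3 CPM (-1.05 ± 0.08). RAD50 was not called, at 12.9 and 10.8 CPM in the AsiDNA libraries and 8.56 and 12.8 CPM in the combination. Of 22 tested Fanconi anemia genes, which act on DNA crosslinks, 16 fell and 1 rose. FANCI went from 224 and 203 to 72.6 and 77.5 CPM (-1.51 ± 0.08) and the deubiquitinase gene USP1 from 208 and 204 to 88.9 and 89 CPM (-1.21 ± 0.07). WDR48, the partner of USP1, was the 1 that rose, from 47.2 and 42.5 to 73.2 and 71.3 CPM (0.68 ± 0.10). Mismatch repair had 7 of 9 tested genes lower.

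End joining, whose kinase DNA-PK is activated by AsiDNA, had 11 of 17 tested genes lower and 2 higher. This count was 7 in the fit of all 8 libraries. XRCC5, the Ku80 subunit that binds DNA ends, was at 638 and 619 CPM in the AsiDNA libraries and 390.5 and 431 CPM in the combination and fell by 0.61 ± 0.06 (adjusted p = 3.28e-12). The changes of PRKDC, the catalytic subunit of DNA-PK (-0.23 ± 0.06), and XRCC6, the Ku70 subunit (-0.30 ± 0.06), were small and were not called in the fit of all 8 libraries (adjusted p = 0.191 and 0.137). POLQ, the polymerase of alternative end joining, fell from 101 and 99.3 to 49.7 and 59.6 CPM (-0.87 ± 0.09), and SHLD2, a shieldin subunit that limits resection, from 41.6 and 35.7 to 11.2 and 12.6 CPM (-1.7 ± 0.14). TP53BP1, which channels breaks to end joining, rose from 172 and 173 to 285 and 274 CPM (0.70 ± 0.06), as did the ligase gene LIG4, from 48.9 and 52.1 to 66.5 and 66.2 CPM (0.40 ± 0.09).

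Among base excision genes and those that mend single-strand breaks, 14 of 22 tested genes fell and 2 rose. PARP1, the poly(ADP-ribose) polymerase that AsiDNA also engages, was at 153 and 146 CPM in the AsiDNA libraries and 87.7 and 95.3 CPM in the combination and fell by 0.70 ± 0.08 (adjusted p = 8.08e-11). LIG1, the ligase that seals Okazaki fragments, fell more, from 41.8 and 45.4 to 11.4 and 8.8 CPM (-2.13 ± 0.15). SMUG1, a uracil glycosylase, rose from 16.3 and 19 to 30.6 and 32.1 CPM (0.84 ± 0.14). Nucleotide excision repair was split, with 7 of 20 higher and 8 lower (4 lower with DESeq2 and in the fit of all 8 libraries). DDB2, which recognises ultraviolet lesions, fell from 68.1 and 68.5 to 25.2 and 23.8 CPM (-1.48 ± 0.11), while CETN2, a centrin that also binds XPC, rose from 59.9 and 55.9 to 111 and 111 CPM (0.94 ± 0.08) and ERCC6 rose from 57.6 and 53.8 to 99.7 and 86.8 CPM (0.74 ± 0.09).

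Genes of the checkpoint that stalls cells with damaged or unreplicated DNA were mostly lower. Of 21 tested checkpoint genes 14 fell and 1 rose (median -0.50). TIMELESS, of the fork protection complex, was at 55 and 53.4 CPM in the AsiDNA libraries and 8.89 and 7.42 CPM in the combination and fell by 2.75 ± 0.14 (adjusted p = 4.39e-21). CLSPN, claspin, which couples ATR to CHEK1, went from 93.5 and 98.9 to 18.3 and 21 CPM (-2.28 ± 0.11), and CHEK1 itself from 41.6 and 41.4 to 19.1 and 19.2 CPM (-1.11 ± 0.13). The groups of these 3 genes did not overlap, as for 80.2% of all tested genes. RAD9A, of the sliding clamp that activates ATR, rose from 8.64 and 8.13 to 16.8 and 14.6 CPM (0.89 ± 0.19). Targets of p53 moved both ways, 6 of 28 higher and 11 lower, with 6 lower by DESeq2. MDM2, which degrades p53, went from 186 and 191 to 86.1 and 95.8 CPM (-1.05 ± 0.07) and the nuclease gene AEN from 80.8 and 74.5 to 28.8 and 27.3 CPM (-1.47 ± 0.10). CYFIP2 and the polo-like kinase gene PLK2 rose, from 35.3 and 30.4 to 116 and 114 CPM (1.8 ± 0.09) and from 25.2 and 23.1 to 60.2 and 65.3 CPM (1.38 ± 0.11).

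Among genes of cell death the BCL2 family moved in both directions, and caspases and inhibitors of apoptosis were mostly lower. Of the 4 tested anti-apoptotic BCL2 genes 2 rose and 2 fell: MCL1 was at 381 and 394 CPM in the AsiDNA libraries and 222 and 257 CPM in the combination and fell by 0.69 ± 0.06 (adjusted p = 9.98e-13), and BCL2 fell from 13.6 and 12.8 to 4.77 and 5.41 CPM (-1.37 ± 0.22). BCL2L1, which encodes BCL-XL, rose from 60.1 and 62.8 to 91.7 and 88 CPM (0.55 ± 0.09). Of 8 tested pro-apoptotic members 3 rose and 1 fell. BMF and BCL2L11, which encodes BIM, are BH3-only proteins that block the anti-apoptotic members. They rose from 2.37 and 3.42 to 11.8 and 9.94 CPM (1.92 ± 0.27) and from 3.67 and 3.57 to 9.22 and 7.29 CPM (1.17 ± 0.27), both from low levels. The effectors BAX and BAK1 were not called. Among caspases and inhibitors of apoptosis 11 of 16 fell and 1 rose (median -0.46), with 8 lower by DESeq2 and in the fit of all 8 libraries. The falls were in both roles: the inhibitors XIAP and BIRC2 went from 102 and 101 to 44.9 and 47.2 CPM (-1.14 ± 0.09) and from 146 and 144 to 55.8 and 64 CPM (-1.27 ± 0.08), and the executioner CASP6 went from 11.8 and 12.7 to 3.62 and 5.91 CPM (-1.32 ± 0.23).

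The genes of deacetylases and of corepressor complexes moved separately. HDAC3, the catalytic subunit of the NCOR complexes, was at 69.1 and 73.5 CPM in the AsiDNA libraries and 191 and 178 CPM in the combination and rose by 1.37 ± 0.08 on the log2 scale (adjusted p = 6.64e-20). HDAC8 rose from 17.3 and 19.5 to 34.7 and 32.8 CPM (0.88 ± 0.13) and HDAC5, of class IIa, from 16.4 and 19.1 to 46.7 and 47 CPM (1.41 ± 0.13). HDAC2 and HDAC6 were not called, HDAC2 at 120.4 and 125 CPM in the AsiDNA libraries and 129 and 128 CPM in the combination and HDAC6 at 59.9 and 58.1 CPM in the AsiDNA libraries and 60.4 and 48 CPM in the combination. HDAC1 was called lower with a small change, from 76.5 and 71.6 to 59.9 and 62 CPM (-0.28 ± 0.09), but not by DESeq2 (adjusted p = 0.0692) in the fit of all 8 libraries (adjusted p = 0.0741) or without AsiDNA replicate 1 (adjusted p = 0.0918). HDAC7, of class IIa, fell from 53.7 and 55.9 to 32.4 and 31.1 CPM (-0.79 ± 0.11). The NAD-dependent deacetylase gene SIRT1 fell from 24.8 and 21.5 to 9.38 and 11.1 CPM (-1.17 ± 0.17) and SIRT2 rose from 23.2 and 27.3 to 47.9 and 36.5 CPM (0.73 ± 0.13). Among the 26 tested subunits of corepressor complexes 9 rose and 9 fell (34.6% each, against 31.9% and 31.3% of all tested genes). The NuRD members CHD3 and MBD3 fell, from 159.6 and 167 to 82.3 and 82.4 CPM (-0.99 ± 0.08) and from 104 and 116 to 57.8 and 60.5 CPM (-0.89 ± 0.09), while ARID4A, a SIN3 partner, rose from 23.9 and 21.8 to 51.7 and 46.7 CPM (1.1 ± 0.12).

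The acetyltransferases that oppose the deacetylases were mostly lower, with 10 of 14 called lower and 1 higher (median -0.35). By DESeq2 6 were lower, and 5 in the fit of all 8 libraries. KAT6B went from 46.1 and 48.4 to 19.7 and 15.6 CPM (-1.43 ± 0.13) and CREBBP, which encodes CBP, from 36.6 and 35.7 to 16.6 and 17.2 CPM (-1.09 ± 0.13). The readers and elongation factors that act on acetylated chromatin did not share a direction (6 of 17 higher, 4 lower). ELL2, an elongation factor, was at 237 and 232 CPM in the AsiDNA libraries and 544 and 588 CPM in the combination and rose by 1.27 ± 0.06 (adjusted p = 2.44e-22). Of 23 tested Polycomb and H3K27 demethylase genes 5 rose and 7 fell. EZH2, the H3K27 methyltransferase, fell from 152 and 144 to 66.2 and 69.4 CPM (-1.13 ± 0.08), while JARID2, its cofactor, rose from 26.7 and 25.7 to 49.4 and 44.3 CPM (0.83 ± 0.12) and RING1 rose from 20.9 and 16.1 to 39.5 and 37.7 CPM (1.04 ± 0.13). For DNA methylation 5 of 12 genes fell. UHRF1, which brings DNMT1 to replicated DNA, went from 130.5 and 133 to 35 and 30.9 CPM (-2.0 ± 0.09), and DNMT1 from 225 and 227 to 106 and 104 CPM (-1.11 ± 0.07), whereas the de novo enzyme gene DNMT3A was not called, at 4.61 and 5.28 CPM in the AsiDNA libraries and 4.77 and 3.9 CPM in the combination.

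Genes that build ribosomes fell, and genes of the ribosome's own proteins stayed near their level. Of 30 ribosome biogenesis genes 25 fell and 2 rose (median -0.59), with 19 lower by DESeq2 and 20 in the fit of all 8 libraries. NCL, nucleolin, was at 649 and 626 CPM in the AsiDNA libraries and 207 and 208 CPM in the combination and fell by 1.62 ± 0.06 (adjusted p = 3.48e-26). UBTF, which activates ribosomal DNA transcription, went from 97.1 and 100.3 to 40.6 and 43.4 CPM (-1.23 ± 0.09), and DKC1, which pseudouridylates ribosomal RNA, from 101 and 83.8 to 34.4 and 37.9 CPM (-1.35 ± 0.10). FBL, fibrillarin, was one of the 2 that rose, from 58.9 and 68.3 to 93.8 and 79.5 CPM (0.44 ± 0.09). Of 38 cytosolic ribosomal protein genes 11 rose, 8 fell and 19 were not called, with a median of 0.04 and no member 2-fold changed. The number higher was 2 in the fit of all 8 libraries and 6 with scaling by library size only. RPL10 fell from 439 and 469 to 293 and 291 CPM (-0.64 ± 0.06) and RPL11 rose from 639.6 and 679 to 872 and 842 CPM (0.38 ± 0.06). Their pseudogene copies make the split of reads for this family uncertain. CACGTG, an E-box of MYC and TFE factors, was in 37.5% of 24 windows of ribosome biogenesis genes, against 10.2% of all. It was also in 21.7% of 23 windows of autophagy and lysosome genes, a list that mostly rose. The share was 9.97% among all genes called higher and 10.7% among all genes called lower.

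Splicing factors fell with them: 22 of 29 SR and hnRNP genes were lower and 1 higher (median -0.39). The number lower was 16 in the fit of all 8 libraries. SRSF7 went from 136 and 141 to 59.2 and 65.3 CPM (-1.15 ± 0.08) and HNRNPH1 from 581 and 538 to 336 and 305 CPM (-0.81 ± 0.06). To look beyond the chosen lists, genes were grouped by the letters that open their symbols, and 9 of the 90 roots with at least 15 tested genes had at least 60% of them called in 1 direction. The roots were read after their values were seen, and so were the genes named for them. None of 21 NUP genes, which mostly encode nuclear pore proteins, rose and 18 fell. NUP188 went from 241 and 236 to 107 and 104 CPM (-1.17 ± 0.07). Of 36 DDX genes, RNA helicases, 26 fell and 2 rose, with DDX21, a nucleolar helicase, at 289 and 291 CPM in the AsiDNA libraries and 97.7 and 91.9 CPM in the combination (-1.61 ± 0.07). The root RAD had 11 of 18 lower. Small RNAs went the same way: 17 of 24 snRNA genes and 15 of 34 snoRNA genes fell, with 0 and 1 higher. The snRNA genes exist in near-identical copies, so their reads are uncertain between copies. The snoRNA genes often lie within host genes, and of 26 tested genes with the root SNHG, such hosts, 14 fell and 4 rose. Whether the snoRNA reads came from RNA of the hosts was not tested.

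**Figure D5:**
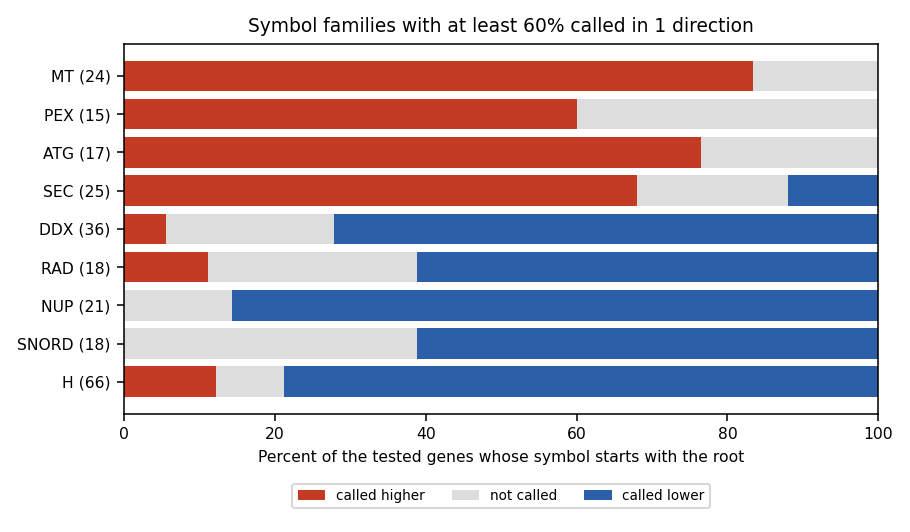
Bars from 0 to 100% that split the tested genes of each symbol root (number in brackets) into those called higher, not called and called lower, for the 9 roots with at least 60% of their genes called in 1 direction. Lower calls make up most of NUP, DDX, H, RAD and SNORD, and higher calls most of ATG, SEC, PEX and MT. The root MT is not 1 family: it joins genes of the mitochondrial genome with metallothioneins.

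On the other side, genes of membrane traffic and of self-digestion rose. Of 30 autophagy and lysosome genes 24 rose and 2 fell (median 0.61, with 31.9% of all genes called higher). CTSB, cathepsin B, was at 530.3 and 546 CPM in the AsiDNA libraries and 965 and 976 CPM in the combination and rose by 0.85 ± 0.06 (adjusted p = 2.27e-17). ATP6V0D1, a subunit of the proton pump that acidifies lysosomes, went from 66.8 and 79.2 to 159.9 and 148 CPM (1.08 ± 0.08). NPC1, which exports cholesterol from lysosomes, went from 177 and 176 to 293 and 299 CPM (0.75 ± 0.06). The exceptions were CTSL, cathepsin L, which fell from 128 and 130.0 to 89.5 and 93.7 CPM (-0.49 ± 0.08), and TFE3, whose small fall (-0.27 ± 0.08) was not called without AsiDNA replicate 1 (adjusted p = 0.0636), by DESeq2 (adjusted p = 0.0601) or in the fit of all 8 libraries (adjusted p = 0.118). Of 17 genes with the root ATG, 13 rose and 0 fell, ATG2B going from 91.2 and 107 to 187 and 196 CPM (0.95 ± 0.08). The root SEC, mostly genes of the secretory pathway, had 17 of 25 higher and 3 lower. SEC22B, a SNARE between endoplasmic reticulum and Golgi, was at 106 and 103 CPM in the AsiDNA libraries and 346 and 380.3 CPM in the combination (1.79 ± 0.07). For PEX, the peroxins of peroxisomes, 9 of 15 were higher and 0 lower, with PEX19 going from 34.8 and 37.4 to 70.4 and 78.7 CPM (1.05 ± 0.10).

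Heat shock chaperones were lower more often than higher. Of 17 tested heat shock chaperones, mostly cytosolic and mitochondrial, 10 fell and 1 rose, with 6 lower in the fit of all 8 libraries. HSPA8, the constitutive HSP70, was at 2066 and 2014 CPM in the AsiDNA libraries and 1079.6 and 1121 CPM in the combination and fell by 0.89 ± 0.06 (adjusted p = 2.06e-18). HSP90AA1 went from 1668 and 1506 to 932 and 868 CPM (-0.82 ± 0.06) and the mitochondrial chaperonin HSPD1 from 674 and 641 to 347 and 349 CPM (-0.92 ± 0.06). Among the unfolded protein and amino acid response genes, HSPA5, which encodes the endoplasmic reticulum chaperone BiP, was at 496 and 461 CPM in the AsiDNA libraries and 1078 and 940.4 CPM in the combination and rose by 1.08 ± 0.06 (adjusted p = 1.40e-19), and HSP90B1 went from 2455 and 2318 to 3350.0 and 3509 CPM (0.52 ± 0.05). SEL1L, of the pathway that removes misfolded proteins, went from 271 and 253 to 524 and 529 CPM (1.01 ± 0.06). That list as a whole was split, 10 of 24 higher and 9 lower, and its factor XBP1 fell from 94.9 and 91.5 to 50.5 and 50.9 CPM (-0.88 ± 0.09). Of 30 proteasome subunits 9 rose and 12 fell, none by 2-fold, and 5 were lower in the fit of all 8 libraries.

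Metallothioneins, small cysteine-rich proteins that bind zinc and copper, gave 4 of 6 tested genes higher and 0 lower. MT1X (ENSG00000187193, chromosome 16, 56682424 to 56684196) was at 33.6 and 32.1 CPM in the AsiDNA libraries and 481 and 494 CPM in the combination, and rose by 3.89 ± 0.08 on the log2 scale (adjusted p = 1.05e-36). MT1G went from 1.42 and 1.28 to 10 and 11.1 CPM (2.95 ± 0.31), MT1E from 15.9 and 18.1 to 47.1 and 48.5 CPM (1.5 ± 0.13) and MT3 from 4.61 and 7.13 to 20.2 and 18.1 CPM (1.72 ± 0.20). MT2A, the member with the most counts in AsiDNA, did not follow, at 613 and 647 CPM in the AsiDNA libraries and 614 and 611 CPM in the combination (-0.04 ± 0.06, adjusted p = 0.559). These genes are close copies of each other on chromosome 16, so reads may be split between them. The MT1X window (chr16:56682220-56682519 on the plus strand) is shown because metal-responsive genes are known by short repeats. Capitals mark TGCGCNC or TGCACNC, the core of the metal response element, on either strand, motifs chosen after seeing the data.
MT1X: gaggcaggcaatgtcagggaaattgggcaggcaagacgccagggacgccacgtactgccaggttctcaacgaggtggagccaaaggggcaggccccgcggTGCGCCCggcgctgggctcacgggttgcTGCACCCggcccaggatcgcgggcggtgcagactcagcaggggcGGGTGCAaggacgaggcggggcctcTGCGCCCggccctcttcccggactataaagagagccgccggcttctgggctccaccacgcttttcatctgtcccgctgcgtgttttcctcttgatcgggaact
It held 2 matches of each motif. Among all 9920 windows 31.3% held TGCGCNC and 11% TGCACNC.

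Redox and iron genes did not share a direction, with 10 of 19 higher and 7 lower. GCLC, the catalytic subunit of glutathione synthesis, rose from 30.8 and 29.4 to 88.4 and 88.8 CPM (1.56 ± 0.10) while its modifier GCLM fell from 80.1 and 81 to 42 and 47.3 CPM (-0.85 ± 0.09). KEAP1, the adaptor that marks NRF2 for degradation, fell from 75.7 and 74.1 to 17.8 and 18.9 CPM (-2.03 ± 0.11), and NFE2L2, which encodes NRF2, was not called, at 80.8 and 75.6 CPM in the AsiDNA libraries and 81 and 75.3 CPM in the combination. The ferritin gene FTH1 rose from 1698 and 1593 to 3057 and 2885 CPM (0.85 ± 0.06). HMOX1, heme oxygenase, fell from 168 and 179.8 to 92.6 and 82 CPM (-1.0 ± 0.08).

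Metabolic genes rose more often than they fell. Of 20 glycolysis genes 15 rose and 3 fell (median 0.52), with 11 higher in the fit of all 8 libraries. The glucose transporter genes SLC2A3 and SLC2A1 went from 105 and 112 to 238 and 234 CPM (1.12 ± 0.07) and from 384 and 429.8 to 750.4 and 737 CPM (0.87 ± 0.06). HK2, hexokinase, went from 326 and 348 to 716 and 633 CPM (1.0 ± 0.06). PFKL, a subunit of the next committed enzyme phosphofructokinase, fell from 220.3 and 231 to 121 and 111 CPM (-0.96 ± 0.07). For fatty acid synthesis 6 of 11 rose and 3 fell. ACSL4, which activates polyunsaturated fatty acids, was at 367 and 370.1 CPM in the AsiDNA libraries and 1177 and 1208 CPM in the combination and rose by 1.69 ± 0.06 (adjusted p = 1.08e-27), and SCD, the desaturase, went from 498 and 479 to 1277 and 1286 CPM (1.39 ± 0.06). The synthase gene FASN fell from 221 and 234 to 191 and 168 CPM (-0.34 ± 0.07). Of 23 cholesterol synthesis genes 11 rose and 6 fell, with 8 higher by DESeq2. FDFT1, squalene synthase, rose from 60.2 and 57.9 to 126 and 132 CPM (1.13 ± 0.08), while the sterol sensor partner INSIG1 fell from 234 and 239.6 to 165 and 178 CPM (-0.46 ± 0.07).

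Of 30 nuclear-encoded genes of the respiratory chain 17 rose and 4 fell (median 0.29), with 11 higher in the fit of all 8 libraries. UQCRC1, of complex III, went from 175 and 195 to 385 and 356 CPM (1.0 ± 0.07) and NDUFB3, of complex I, from 34.5 and 36.4 to 67.3 and 77.7 CPM (1.04 ± 0.10). All 13 genes of the mitochondrial genome were called higher (median 0.60), but combination replicate 1 carried much of this. MT-CO1 was at 2139.5 and 2049 CPM in the AsiDNA libraries and 2947 and 2727 CPM in the combination (0.44 ± 0.06) and MT-ND5 at 163 and 169 CPM in the AsiDNA libraries and 391 and 218 CPM in the combination (0.86 ± 0.11). Mitochondrial transcripts took 0.731% and 0.717% of counts in AsiDNA and 1.2% and 0.815% in the combination. Without combination replicate 1 the median was 0.27 and 7 genes were higher, and DESeq2 also called 7, MT-ND5 not among them (adjusted p = 0.0691).

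Genes of the matrix changed one by one rather than as a family. Of 20 tested collagen genes 6 rose and 9 fell, with 5 lower in the fit of all 8 libraries. COL4A2, of basement membranes, fell from 11.7 and 10.4 to 2.3 and 2.39 CPM (-2.23 ± 0.27) and COL4A5 rose from 19.4 and 24.5 to 48.7 and 49.8 CPM (1.18 ± 0.12). COL6A3 was not called, at 4942 and 5192 CPM in the AsiDNA libraries and 5154 and 5188 CPM in the combination. Of 14 tested lysyl oxidase and collagen processing genes 9 rose and 4 fell, with 6 higher by DESeq2 and in the fit of all 8 libraries. The prolyl hydroxylase genes P4HA1 and P4HA2 rose from 378 and 356 to 773 and 812 CPM (1.11 ± 0.06) and from 475 and 482 to 805 and 856 CPM (0.80 ± 0.06), whereas SERPINH1, the collagen chaperone HSP47, was at 146 and 150.3 CPM in the AsiDNA libraries and 41 and 47.4 CPM in the combination and fell by 1.74 ± 0.09 (adjusted p = 8.65e-22). LOXL2 was not called, at 1549 and 1627 CPM in the AsiDNA libraries and 1661 and 1437 CPM in the combination, and LOXL3 fell from 207 and 212 to 123 and 123 CPM (-0.77 ± 0.07).

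Among matrix proteases and their inhibitors 10 of 22 rose and 8 fell, and the urokinase system was on the lower side. PLAU, urokinase, was at 289.8 and 265 CPM in the AsiDNA libraries and 59.6 and 57.4 CPM in the combination and fell by 2.25 ± 0.08 (adjusted p = 7.96e-28). Its receptor gene PLAUR went from 260.0 and 282 to 84.6 and 90.8 CPM (-1.62 ± 0.07). ADAMTS1, a proteoglycan protease, went from 271 and 293 to 37.4 and 45 CPM (-2.76 ± 0.08) and MMP14, a membrane collagenase, from 331 and 332 to 131 and 129 CPM (-1.35 ± 0.07). TIMP3, which inhibits such proteases, rose from 235 and 254 to 776 and 827 CPM (1.71 ± 0.06), and MMP2 was not called, at 1377 and 1459 CPM in the AsiDNA libraries and 1407 and 1361 CPM in the combination. Integrins and laminins were higher for 12 of 23 and lower for 3. The laminin chain gene LAMA5 rose from 1.3 and 1.71 to 21.1 and 15.8 CPM (3.6 ± 0.27), ITGA7 from 73.3 and 77.8 to 215 and 213 CPM (1.5 ± 0.07) and ITGB1, the most shared beta subunit, from 1492 and 1411 to 2272 and 2476 CPM (0.71 ± 0.06). Of 10 tested hyaluronan genes 3 rose and 4 fell (median 0.11). HAS2, a hyaluronan synthase, fell from 207 and 205 to 13.3 and 19.2 CPM (-3.63 ± 0.10), while its relative HAS1 rose from 110.3 and 120.3 to 165 and 167 CPM (0.53 ± 0.07), and the receptor gene CD44 from 1539 and 1448 to 2488 and 2221 CPM (0.66 ± 0.06).

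Components of transforming growth factor beta signalling, which induces matrix genes, moved both ways. The ligand TGFB2 was at 26.3 and 24.4 CPM in the AsiDNA libraries and 105 and 107 CPM in the combination and rose by 2.06 ± 0.10 (adjusted p = 1.47e-22). The receptor genes TGFBR1 and TGFBR2 rose from 319 and 326 to 1153 and 1143 CPM (1.83 ± 0.06) and from 109 and 107 to 297 and 299 CPM (1.47 ± 0.07), and SMAD3, the signal transducer, from 194 and 191 to 608 and 532 CPM (1.56 ± 0.06). The feedback inhibitor SMAD7 was not called, at 47.2 and 49.9 CPM in the AsiDNA libraries and 49.7 and 49.8 CPM in the combination, and ID1, a target of the related BMP signal, fell from 151 and 150.0 to 62 and 61.4 CPM (-1.29 ± 0.08). Over the whole list 7 of 20 rose (35%) and 8 fell (40%), against 31.9% and 31.3% of all tested genes. At least 2-fold changes were called for 6 higher and 4 lower members, and the lowest log2 fold change was -1.77. Of 16 tested YAP-TEAD factors and targets 7 rose and 4 fell: CCN2, the connective tissue growth factor, rose from 13.1 and 14.7 to 115 and 116 CPM (3.06 ± 0.11) and AJUBA from 10.6 and 12 to 37 and 39 CPM (1.75 ± 0.14), while the factors YAP1 and TEAD4 fell, from 124 and 125 to 72.7 and 68.2 CPM (-0.82 ± 0.08) and from 18.9 and 20.1 to 6.91 and 7.04 CPM (-1.48 ± 0.18). Factors of mesenchymal transition went both ways (5 of 12 higher, 6 lower), with SNAI1 rising from 1.3 and 0.713 to 4.77 and 6.54 CPM (2.45 ± 0.40) and CDH2, N-cadherin, falling from 129 and 131 to 76 and 87.7 CPM (-0.66 ± 0.08).

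Receptors and growth signals were mixed. EGFR, the receptor most often altered in glioblastoma, was not called, at 252 and 269.7 CPM in the AsiDNA libraries and 256 and 254 CPM in the combination (-0.03 ± 0.06). MET, the hepatocyte growth factor receptor, rose from 367 and 371 to 636 and 699 CPM (0.86 ± 0.06), and PDGFRB fell from 103 and 113 to 82.9 and 71.7 CPM (-0.49 ± 0.08). The inhibitors of receptor signalling SPRY2 and SPRY4 fell, from 87.8 and 89.6 to 28.3 and 30.4 CPM (-1.59 ± 0.10) and from 39.5 and 34.8 to 12.7 and 11.4 CPM (-1.63 ± 0.14), whereas the phosphatase gene DUSP5 rose from 31.1 and 32.5 to 53.2 and 61.4 CPM (0.86 ± 0.11). Of 19 immediate early factors 7 rose and 7 fell (36.8% each, against 31.9% and 31.3% of all tested genes). FOSL1, an AP-1 subunit, fell from 182 and 186 to 65.5 and 56.1 CPM (-1.6 ± 0.08), and JUN rose from 499.7 and 519 to 743 and 764 CPM (0.57 ± 0.06). MYC was at 154 and 153 CPM in the AsiDNA libraries and 107 and 90.8 CPM in the combination and fell by 0.64 ± 0.08 (adjusted p = 1.61e-09), while MXI1, which competes with it for MAX, rose from 47.6 and 55.2 to 147 and 152 CPM (1.55 ± 0.08).

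In the Notch pathway 3 of 11 tested genes rose and 3 fell. The receptor gene NOTCH1 was at 93.7 and 99.7 CPM in the AsiDNA libraries and 35.2 and 32.4 CPM in the combination and fell by 1.52 ± 0.10 (adjusted p = 3.12e-18), NOTCH3 fell from 143 and 152 to 81 and 70.3 CPM (-0.97 ± 0.08), and NOTCH2 rose from 828 and 862 to 1169.8 and 1182 CPM (0.48 ± 0.06). The ligand JAG1 rose from 29.6 and 28.5 to 57.9 and 60.5 CPM (1.03 ± 0.11). Of 24 WNT pathway genes 8 rose (33.3%) and 9 fell (37.5%), against 31.9% and 31.3% of all tested genes, with 5 lower by DESeq2. WNT5A, a ligand that mostly signals without beta-catenin, fell from 1021 and 1030.4 to 583 and 605 CPM (-0.79 ± 0.06), and the nuclear effector LEF1 from 15.1 and 12.7 to 4.44 and 4.15 CPM (-1.7 ± 0.23). DACT1, an antagonist of the pathway, rose from 10.2 and 13.1 to 36.4 and 37.2 CPM (1.67 ± 0.15).

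Genes typical of neurons were mostly higher where they could be tested. Of 46 neuronal and synaptic genes 22 had enough counts, and 16 of these rose and 4 fell (median 0.73). Genes that pass a count filter through 1 high group must differ, so this count describes the 22 and not the 46. Among the defining neuronal markers RBFOX3 and STMN2 were at 0 in all 4 libraries, and the 6 markers summed to 54.9 and 52.2 CPM in AsiDNA and 179.7 and 192 CPM in the combination. BEX1, a neuronal signalling adaptor, was at 10.6 and 10.6 CPM in the AsiDNA libraries and 58.3 and 55.7 CPM in the combination and rose by 2.42 ± 0.13 (adjusted p = 1.77e-20). TUBB3, the neuronal tubulin, was not called, at 11.8 and 12.3 CPM in the AsiDNA libraries and 11.2 and 13 CPM in the combination. STX1A, a syntaxin of vesicle release, fell from 113 and 120.1 to 56.8 and 37.7 CPM (-1.32 ± 0.10) and the calcium channel gene CACNA1A from 104 and 109 to 40.8 and 32.4 CPM (-1.56 ± 0.10). Neural stem cell markers did not share a direction, with 4 of 10 tested higher and 5 lower (median -0.46). The Notch receptor gene NOTCH1 fell from 93.7 and 99.7 to 35.2 and 32.4 CPM (-1.52 ± 0.10), and FUT4, a fucosyltransferase, from 6.03 and 5.71 to 0.494 and 0.880 CPM (-3.02 ± 0.43). NES, nestin of neural progenitors, rose from 7.22 and 5.99 to 55.8 and 54 CPM (3.04 ± 0.15), and SOX9 from 5.44 and 5.85 to 13 and 13.8 CPM (1.25 ± 0.21). Of the oligodendrocyte lineage CSPG4, also called NG2, fell from 138 and 143 to 54.6 and 62.1 CPM (-1.26 ± 0.08).

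Among cytoskeletal genes, tubulins moved in both directions. TUBA1B was at 1436 and 1435 CPM in the AsiDNA libraries and 331 and 352 CPM in the combination and fell by 2.07 ± 0.06 (adjusted p = 1.76e-30), and TUBB4B went from 988 and 1078 to 369 and 352 CPM (-1.52 ± 0.06). TUBA1A, abundant in developing neurons, rose from 20.3 and 18.5 to 44.1 and 44.5 CPM (1.18 ± 0.12), and TUBA4A rose from 256 and 279 to 439 and 423 CPM (0.69 ± 0.06). The list sum fell from 4871 and 5072 CPM to 2186 and 2187 CPM, with 5 of 13 genes higher and 6 lower. Axoneme and ciliary genes were higher for 10 of 16 tested and lower for 1 (31.9% of all genes were higher). Another 15 had too few counts to be tested, and some members, DNAI1 among them, passed the count filter only through the combination, so this count describes the 16 and not the whole list. DNAH7, a heavy chain of ciliary dynein, rose from 5.8 and 3.57 to 24.5 and 22.9 CPM (2.31 ± 0.20), and RFX2, a transcription factor of ciliated cells, from 7.81 and 6.99 to 21.6 and 21.6 CPM (1.54 ± 0.18).

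Immune genes moved in both directions. Interferon-stimulated genes were higher for 6 of 19 tested and lower for 6 (31.6% each), near the shares of all tested genes (31.9% higher and 31.3% lower). OASL was at 7.81 and 6.99 CPM in the AsiDNA libraries and 24 and 29.8 CPM in the combination and rose by 1.87 ± 0.17 (adjusted p = 7.52e-13), while OAS3 was at 17.7 and 13.8 CPM in the AsiDNA libraries and 2.8 and 3.02 CPM in the combination and fell by 2.44 ± 0.24 (adjusted p = 5.68e-12). IFI6 rose from 6.27 and 6.99 to 16.6 and 19 CPM (1.44 ± 0.19) and IFI44L fell from 23.5 and 24.1 to 5.92 and 5.91 CPM (-2.01 ± 0.18). Of 10 tested sensors of foreign nucleic acid 2 rose, 1 fell and 7 were not called, and 0 were higher by DESeq2 and 1 in the fit of all 8 libraries, with scaling by library size only or without combination replicate 1. Of 16 tested genes of HLA class I and peptide loading 3 rose, 6 fell and 7 were not called (median -0.18). With scaling by library size only 11 were lower. The largest rise of these was that of CALR, calreticulin, from 1586 and 1631 to 2382 and 2320 CPM (0.55 ± 0.05). The immunoproteasome gene PSMB8 fell from 29.9 and 24.3 to 10.4 and 8.68 CPM (-1.53 ± 0.17), the peptide trimmer ERAP1 from 92.2 and 91.5 to 36 and 38.6 CPM (-1.29 ± 0.09) and the activator NLRC5 from 45.4 and 44.8 to 28.1 and 26.9 CPM (-0.72 ± 0.11). Of 19 tested genes with the root HLA, which is not limited to class I, 9 rose and 0 fell. Genes of this root are similar in sequence, so the split of reads between them is uncertain. B2M had a small rise (0.17 ± 0.06) that was not called in the fit of all 8 libraries (adjusted p = 0.305), without AsiDNA replicate 2 (adjusted p = 0.104) or with scaling by library size only (adjusted p = 0.684).

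Ligands for immune receptors included VSIR, described above, and CD276, a B7 family member, which rose from 65.2 and 69.1 to 117 and 111 CPM (0.76 ± 0.08). CD274, which encodes PD-L1, rose from 9.94 and 9.7 to 17.6 and 16.7 CPM (0.80 ± 0.18), and CD47 was not called, at 229 and 218 CPM in the AsiDNA libraries and 216 and 236 CPM in the combination. MICA, a ligand of the killer cell receptor NKG2D, was at 35 and 34.8 CPM in the AsiDNA libraries and 106 and 105 CPM in the combination and rose by 1.59 ± 0.09 (adjusted p = 1.41e-19), and its relative MICB fell from 9.7 and 8.85 to 2.3 and 1.63 CPM (-2.26 ± 0.30). Among cytokines and NF-kB genes 8 of 22 rose and 11 fell. IL1A rose from 3.19 and 4.42 to 20.2 and 23.8 CPM (2.55 ± 0.21) and CXCL8, the neutrophil chemokine, from 347 and 330.0 to 702 and 775 CPM (1.13 ± 0.06), whereas IL11 fell from 181 and 189 to 24 and 29.6 CPM (-2.77 ± 0.09) and NFKB1 from 56.4 and 52.9 to 21.9 and 19.9 CPM (-1.4 ± 0.12).

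By class, the change was not spread evenly over the expressed genes. Protein-coding genes were called higher in 32.8% and lower in 33.2% of 11493, while 1042 genes of long noncoding types were higher in 29.9% and lower in 16.4%, with a median of 0.21 and 21% at least 2-fold higher. ATP13A3-DT rose from 1.42 and 1.43 to 16.5 and 16.7 CPM (3.53 ± 0.27) and LASTR fell from 11.1 and 10.7 to 1.15 and 1.38 CPM (-3.07 ± 0.32), among the largest changes of these types. SNHG3, a host of small nucleolar RNAs, fell from 216 and 214 to 62.2 and 70.9 CPM (-1.69 ± 0.08). Genes with a mean log2 CPM of at least 8 were higher in 48.3% and lower in 30.1% of 605, against 30.5% and 37% of 4597 genes between 4 and 6. Genes of any type under 2 were higher in 27.9% and lower in 16.1% of 2167. Their median was 0.19 and 25.7% were at least 2-fold higher, a lean like that of the long noncoding types. Whether the lean of those types is separate from abundance was not tested. Protein-coding genes that span over 300 kb were higher in 40.8% and lower in 27% of 441, while those under 10 kb were higher in 31.6% and lower in 31.2% of 2060. These shares move with depth, since genes with few counts pass the test less often.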

How the data were processed

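Total RNA of U87 cells was sequenced after ribosomal RNA depletion with a stranded Illumina kit, per the labels' protocols. Per the submitters' processing notes, cutadapt 1.16 trimmed the reads, STAR 2.7.0 aligned them to GRCh38, and featureCounts 1.6.3 of Subread assigned them to genes. The deposited values are raw counts per gene. The sources used here give neither the annotation release nor the strand setting, so antisense, overlapping and near-identical genes are uncertain.

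Libraries were grouped by their labels. Only the 2 AsiDNA and 2 combination columns were fitted, in R 4.3.3 with edgeR 4.0.16: filterByExpr, TMM factors, 1 coefficient per group, the quasi-likelihood F-test and Benjamini-Hochberg adjustment over 13093 genes, called at an adjusted p under 0.05. The common dispersion was 0.00249 with 2 residual degrees of freedom and a prior of 41.66. Standard errors were derived from each log2 fold change and the root of its F value. Log2 CPM used a prior count of 2, and CPM were scaled by TMM. Depth was 6426752 to 8335614 counts. Positions and gene types come from GENCODE 29, promoter windows from RefSeq (GRCh38.p14, matched by symbol for 9920 tested genes).

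Genes named were the 12 largest rises and falls by rule (mean log2 CPM at least 2, groups not overlapping), the 8 called genes of highest CPM in each direction, nearly silent genes with the most counts, the members of each list with the smallest and largest adjusted p, members against a list's direction, the largest changes of long noncoding RNAs, and a short fixed set. A few genes picked this way are not reported here. The comparison, the members and the lists were chosen with earlier results of these data known. Alternatives were RLE factors, library size only, DESeq2 1.42.0, no filter, a 1 CPM filter, all 8 libraries, a replicate block, glmTreat at 1.5-fold, the 10 most abundant genes left out, and each library left out. The steps were tested on simulated data in which few genes were changed, equally in both directions. That run does not cover a difference as broad as the one described here.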

Additional observations from a re-analysis of the deposited data

How the results depend on the processing

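Against a 1.5-fold change (glmTreat) 3402 genes were called, 1738 higher and 1664 lower, since that test asks for a larger difference than the 8267 calls (4172 higher and 4095 lower) required. Leaving out 1 library gave 7179 to 7698 calls, 3609 to 3862 higher and 3570 to 3836 lower. RLE factors gave 4157 higher and 4098 lower, and library size only 3352 and 5043. DESeq2 gave 2901 and 2999, and the fit of all 8 libraries 3199 and 3120, in which the DMSO and belinostat-only libraries add to the estimated spread. No filter gave 4102 and 4170, and a 1 CPM filter 4262 and 4155. Of the genes called in the comparison, 5872 were called again in the same direction by DESeq2 and 6134 with all 8 libraries. At most 1 had the opposite sign under any of these alternatives. Same-numbered libraries share only a number: their deviations correlated at -0.0589, and a replicate block gave 4123 higher and 4036 lower, 8159 in all. Depth limits genes under a mean log2 CPM of 2, where 1214 genes were not called and the median standard error was 0.44.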
